A study of Homo sapiens with 6 samples.

Results

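The anaphase-promoting complex or cyclosome (APC/C) and the proteins that work directly with it are described here by 10 genes of the 58735 in the deposited expression table. They are the ubiquitin-conjugating (E2) enzymes UBE2C and UBE2S, the activators CDC20 and FZR1, the inhibitor FBXO5, securin (PTTG1) and separase (ESPL1), and the core subunits CDC16, CDC23 and CDC27. Rows were taken by the gene identifier of each name, or by the name itself where no identifier matched, with 1 row per gene. Of these, 6 (UBE2C, UBE2S, CDC20, PTTG1, ESPL1 and FBXO5) were set as cell-cycle-regulated parts against the other 4, listed as constant. The genes and this split were chosen with the values of the same contrast known, so their levels and fold changes are a description and carry no p-value. All 10 passed the filter on low counts.

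RNA-seq was performed on PANC-1, a long-established cell line from a human pancreatic ductal adenocarcinoma, to learn which transcripts change when METTL16 is silenced. METTL16 is an RNA methyltransferase that places the m6A mark. Control siRNA had been given to 3 of the cultures (si-NC) and siRNA directed at METTL16 to the other 3 (si-METTL16), described as biological triplicates, with no further treatment or time point in the labels. A further label calls the control cells wild type. The siRNA transfection is labelled as transient, whereas the methods describe it as stable. All 6 samples are of 1 cell line in bulk culture, so a change in the share of cells in a cell cycle phase and a change of RNA per cell cannot be told apart.

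The libraries held between 15725298 and 18054436 counts, and 3 counts, taken as the floor for a gene without reads, corresponded to 0.167 to 0.192 CPM, which are counts put on 1 common library size. METTL16 itself was at 91.5, 96.7 and 101 CPM in si-NC and at 34.8, 33.9 and 34.9 CPM in si-METTL16 replicates 1, 2 and 3, a log2 fold change of −1.48 (SE 0.07, adjusted p = 8.34e-05 by edgeR's quasi-likelihood test). Of 15089 genes tested across the whole table, 5418 passed an adjusted p under 0.05, 2780 higher and 2638 lower in si-METTL16. The ductal epithelial markers summed to 2855 to 3928 CPM in si-NC and 3109 to 3401 CPM in si-METTL16, with 3 of the 6 (KRT7, KRT19 and CDH1) past the threshold as lower and none as higher. The acinar markers were at or below the floor in every sample, and the endocrine and the endothelial markers each summed to at most 0.912 CPM. The leukocyte markers summed to 5.68 to 5.83 CPM in si-NC and 7.79 to 9.45 CPM in si-METTL16, nearly all of it CD68 (log2 fold change 0.67, SE 0.14, adjusted p = 0.00928), while PTPRC had 5 counts in each si-NC sample and 0, 0 and 3 in si-METTL16 and CD3E had 0 throughout. The 3 fibroblast markers summed to 323 to 374 CPM in si-NC and 801 to 839 CPM in si-METTL16, nearly all of it COL1A1. The part of these shifts in the results below was not tested.

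The APC/C is a ubiquitin ligase that marks mitotic proteins for destruction by the proteasome. UBE2C attaches the first ubiquitins to a substrate and UBE2S lengthens the chain. CDC20 directs the complex to its substrates in mitosis. FZR1, also called CDH1 but a different gene from the ductal marker CDH1 above, takes over from late mitosis through G1. FBXO5 (EMI1) holds the complex inactive during S and G2 phase. Its best-known substrate is securin, which keeps separase inactive until anaphase, when separase cuts the cohesin rings that join sister chromatids. Many genes of mitosis are transcribed in G2 and M phase through CHR elements, which bind the DREAM and MuvB complexes, together with CCAAT boxes, which bind NF-Y.

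The bases just before the transcription start are shown for 3 regulated members that hold both elements: CDC20, ESPL1 and, at its inner start only, FBXO5. They are also shown for securin, which holds CCAAT boxes alone, and for FZR1, which holds neither within the stretch shown. Each run is the 190 bases before a RefSeq start on GRCh38.p14, 5′ to 3′ on the strand of the gene, and contains no exon of that gene in GENCODE v44. Capitals mark matches on either strand to the CHR letters TTTGAA or TTCGAA and to CCAAT. The runs lie at chr1:43358791-43358980 (plus strand) for CDC20, chr12:53268109-53268298 (plus) for ESPL1, chr6:152983042-152983231 (minus) for the inner start of FBXO5, chr5:160421665-160421854 (plus) for the outer start of PTTG1 and chr19:3506121-3506310 (plus) for the outer start of FZR1.
CDC20: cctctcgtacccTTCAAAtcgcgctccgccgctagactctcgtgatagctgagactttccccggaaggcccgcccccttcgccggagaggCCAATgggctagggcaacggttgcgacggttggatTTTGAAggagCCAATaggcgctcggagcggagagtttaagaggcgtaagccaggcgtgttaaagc
ESPL1: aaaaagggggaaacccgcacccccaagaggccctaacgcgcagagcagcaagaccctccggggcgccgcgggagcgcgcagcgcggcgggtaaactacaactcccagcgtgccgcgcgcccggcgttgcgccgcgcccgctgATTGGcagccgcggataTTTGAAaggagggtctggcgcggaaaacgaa
FBXO5: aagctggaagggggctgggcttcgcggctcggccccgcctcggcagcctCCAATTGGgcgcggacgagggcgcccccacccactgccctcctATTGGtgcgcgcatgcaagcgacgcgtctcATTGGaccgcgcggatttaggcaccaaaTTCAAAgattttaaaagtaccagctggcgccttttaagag
PTTG1: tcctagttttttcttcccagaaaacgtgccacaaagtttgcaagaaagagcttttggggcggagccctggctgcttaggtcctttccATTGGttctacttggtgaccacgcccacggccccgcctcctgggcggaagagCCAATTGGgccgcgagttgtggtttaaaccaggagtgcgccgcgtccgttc
FZR1: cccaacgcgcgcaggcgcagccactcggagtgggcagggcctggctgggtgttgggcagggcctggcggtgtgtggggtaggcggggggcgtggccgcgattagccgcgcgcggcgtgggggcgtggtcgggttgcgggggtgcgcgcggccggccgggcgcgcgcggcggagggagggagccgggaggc

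In CDC20, a CHR match started 65 bases before the transcription start, between CCAAT boxes at 100 and 55 bases before it, and a further CHR match lay at 178. In ESPL1, CCAAT at 48 was followed by CHR at 31 bases before the start. At the inner start of FBXO5, CHR at 40 followed CCAAT matches at 141, 138, 98 and 68, while the window of its outer start held neither element. UBE2S, a regulated member not shown, held a CCAAT match at 191 and no CHR letters. Securin had CCAAT matches at 103, 51 and 48 and no CHR letters. Matches at neighbouring positions in FBXO5 and PTTG1 share bases, because CCAATTGG reads as CCAAT on both strands.

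Over the full RefSeq windows, from 250 bases before to 50 bases after a start, 9 of the 10 members had 1 or 2 windows, 12 in all. UBE2C had no entry. CHR letters were present for 4 of 9 members and CCAAT for 8 of 9, against 19.5% and 39.7% of all 27305 genes with a window (16.4% and 34.6% of all 35116 windows). By role, CHR was found in 3 of the 5 regulated members with a window and in 1 of the other 4, FZR1, where it lay at 226 bases. CCAAT was found in all 5 regulated members and in CDC16, CDC23 and CDC27. The E2F letters TTTGGCGC and TTTCGCGC, present in 1.15% of all windows, were in no window of a member. Among APC/C substrates listed from general knowledge, CHR was present in 18 and CCAAT in 28 of 36 genes with a window. For mitotic checkpoint genes the counts were 5 and 3 of 7, and for core subunits outside the members 3 and 3 of 11. Other E2 enzymes had CHR in 3 and CCAAT in 8 of 28. A match is a description of letters, and binding was not measured.

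**Figure D1:**
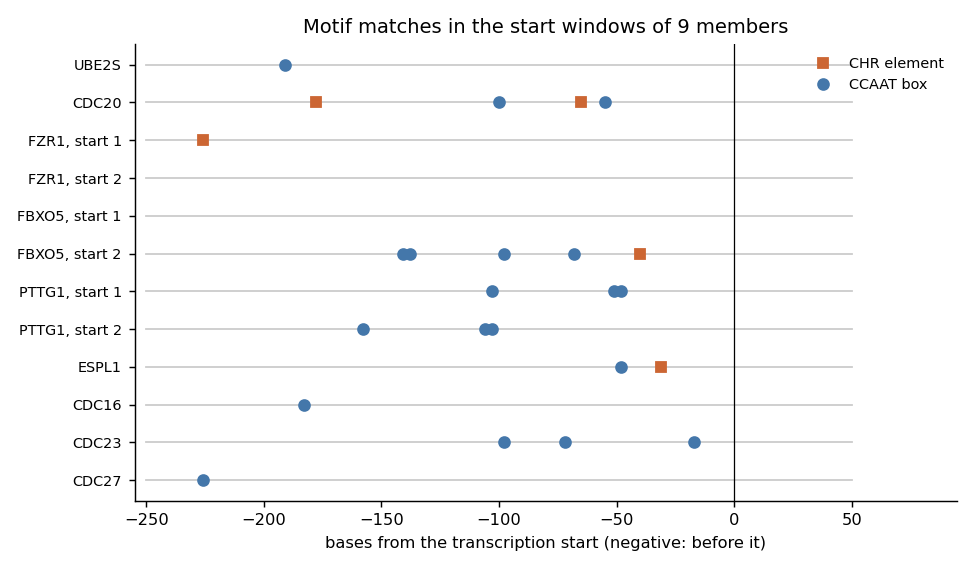
Position of CHR (squares) and CCAAT (circles) matches along the start windows of the 9 members with an entry, in bases from the transcription start. CDC20, ESPL1 and the inner start of FBXO5 hold both elements within 180 bases before the start, and FZR1 holds a CHR match at 226 bases.

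UBE2C, which starts ubiquitin chains on APC/C substrates, showed the largest difference of the 10 genes. Its levels were 34.2, 39.4 and 42.1 CPM in si-NC and 174, 175 and 168 CPM in si-METTL16 replicates 1, 2 and 3. Every silenced sample was far above every control, and the spread within si-METTL16 was small (172 ± 3.87 CPM, SD, n = 3) beside a control mean of 38.6 ± 4.01 CPM. The log2 fold change was 2.16 (SE 0.09), or 4.46-fold, which put UBE2C at percentile 99.6 of the fold changes of all tested genes. The gene lies on chromosome 20 from 45812576 to 45816957, and its 4 annotated copies elsewhere held 10 counts in all beside 10580 for the gene itself.

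UBE2S, the chain-extending partner, was at 133, 127 and 139 CPM in si-NC and at 262, 258 and 251 CPM in si-METTL16. The groups were well apart and each varied by under 5% (CV 4.55% and 2.16%). The log2 fold change was 0.95 (SE 0.06), 1.93-fold. UBE2S lies on chromosome 19 from 55399745 to 55407777, and its counts may be split with near-identical copies on chromosome 17. UBE2SP1 was counted at 861, 854 and 844 reads in si-NC and at 2004, 1771 and 2155 in si-METTL16, and UBE2SP2 at 294, 362 and 387 against 724, 697 and 722. Together the copies took 33.5% to 36.0% of the summed counts in si-NC and 38.1% to 38.9% in si-METTL16. With the copies added to the gene, an alternative chosen after seeing the data, the log2 fold change of UBE2S became 1.04 (SE 0.05).

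The balance between the E2 enzymes was read from FPKM, the deposited values that are scaled by gene length as well as depth. UBE2C stood at 0.377, 0.454 and 0.443 of the FPKM of UBE2S in si-NC replicates 1, 2 and 3. In si-METTL16 the ratio was 0.972, 0.995 and 0.980, so that the transcripts of these genes, as counted, were at like FPKM there. As UBE2S reads may be split with its copies, this ratio is uncertain in its absolute size.

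CDC20, the mitotic activator, was at 51.2, 57.4 and 61.7 CPM in si-NC and at 102, 129 and 119.7 CPM in si-METTL16. The groups did not overlap, although the lowest silenced sample stood apart from the other 2 (CV 11.4%, the highest of the 10 genes in si-METTL16). The log2 fold change was 1.04 (SE 0.11), 2.06-fold. CDC20 lies on chromosome 1 from 43358955 to 43363203, and its copy CDC20P1 held 107 counts beside 8758.

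FZR1, the activator of late mitosis and G1, was at 28.7, 32.0 and 30.7 CPM in si-NC and at 33.6, 32.9 and 29.8 CPM in si-METTL16. The groups overlapped, with a log2 fold change of 0.07 (SE 0.09). FZR1 lies on chromosome 19 from 3506273 to 3538330. Its exons share 74 bases with MFSD12 on the opposite strand, and the sources used here do not state whether counting used strand. CDC20 was at 4.73, 4.76 and 5.33 times the FPKM of FZR1 in si-NC and at 8.09, 10.4 and 10.7 times in si-METTL16. The activators thus moved apart in every silenced sample, with a mean ratio of 4.94 ± 0.341 against 9.71 ± 1.41 (SD, n = 3).

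FBXO5, which inhibits the APC/C before mitosis, was at 26.5, 33.5 and 35.4 CPM in si-NC and at 77.1, 87.6 and 81.4 CPM in si-METTL16. All silenced samples were higher than all controls, with si-NC replicate 1 the lowest of the 6. The log2 fold change was 1.37 (SE 0.12), 2.58-fold. FBXO5 lies on chromosome 6 from 152970519 to 152983579. Set against FZR1, whose complex it blocks, FBXO5 went from a mean FPKM ratio of 1.56 ± 0.175 to 3.85 ± 0.354 (SD, n = 3), and these ratios did not overlap between the groups.

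PTTG1, the securin that holds separase inactive, was at 45.4, 63.2 and 55.6 CPM in si-NC and at 153, 174 and 162 CPM in si-METTL16. It had the widest control spread of the 10 genes (CV 16.3%), yet the groups were far apart. The log2 fold change was 1.57 (SE 0.12), 2.98-fold. PTTG1 lies on chromosome 5 from 160421822 to 160428744, and its related genes PTTG2 and PTTG3P held 37 counts beside 10947.

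ESPL1, the separase that opens cohesin at anaphase, was at 19.3, 20.4 and 21.96 CPM in si-NC and at 56.5, 58.6 and 53.0 CPM in si-METTL16. The groups did not overlap, and the log2 fold change was 1.45 (SE 0.09), 2.73-fold. ESPL1 lies on chromosome 12 from 53268299 to 53293643. Per length it was the least abundant of the 10 genes in si-NC, at a mean of 1.56 FPKM, and level with FZR1 in si-METTL16, at 4.19 FPKM beside 4.24. Securin and separase differed together, so that their FPKM ratio was 9.13, 12.0 and 9.83 in si-NC and 10.5, 11.5 and 11.9 in si-METTL16. These ratios overlapped between the groups.

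**Figure D2:**
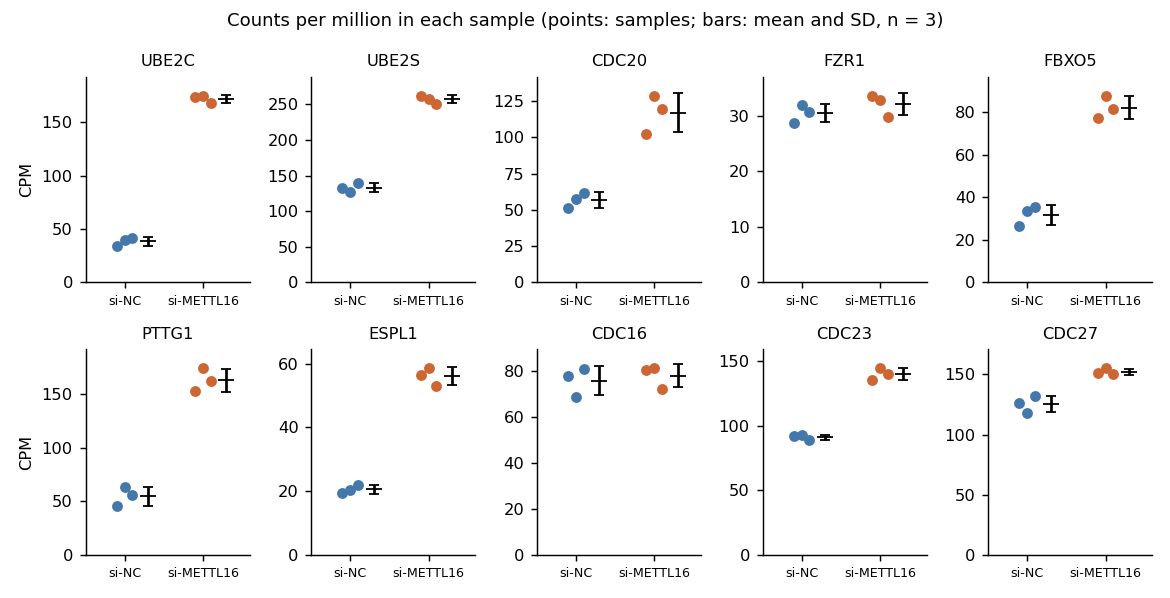
CPM of the 10 genes in each of the 3 si-NC (blue) and 3 si-METTL16 (orange) samples, with the mean and SD beside them; each axis starts at 0. The groups are apart for 8 genes and overlap for FZR1 and CDC16.

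The core subunits CDC16, CDC23 and CDC27 carry tetratricopeptide repeats and form the arm of the complex that binds the activators. CDC16 was at 77.6, 68.8 and 80.8 CPM in si-NC and at 80.2, 81.2 and 72.0 CPM in si-METTL16. The groups overlapped, with a log2 fold change of 0.04 (SE 0.09), and leave-one-out values lay between −0.03 and 0.09. CDC16 lies on chromosome 13 from 114234887 to 114272723.

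CDC23 was at 92.0, 92.6 and 88.7 CPM in si-NC and at 135, 145 and 139.8 CPM in si-METTL16. The groups were far apart beside their spread (CV 2.28% and 3.37%), with a log2 fold change of 0.62 (SE 0.06), 1.54-fold. CDC23 lies on chromosome 5 from 138187648 to 138213343. Its exons share 74 bases with those of KIF20A, a mitotic kinesin on the opposite strand whose log2 fold change was 0.82 (SE 0.12, adjusted p = 0.00243). KIF20A held 5687 counts beside 11668 for CDC23, and the part of shared reads in the value for CDC23 was not tested.

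CDC27 was at 126, 118 and 132 CPM in si-NC and at 151, 155 and 150.2 CPM in si-METTL16. The lowest silenced sample was above the highest control, at a log2 fold change of 0.28 (SE 0.06), 1.21-fold. CDC27 lies on chromosome 17 from 47117703 to 47189422, and its 3 annotated copies held 64 counts beside 14048. Of the 4 genes listed as constant, CDC16 and FZR1 thus had overlapping groups, while CDC23 and CDC27 were higher in every silenced sample.

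Across the 10 genes, 8 passed the threshold of the fit over all genes, all of them higher in si-METTL16, where 35.9% of all tested genes passed in either direction and 18.4% passed as higher. The same 8 had groups that did not overlap, as had 50.9% of all tested genes. As the genes were chosen on this contrast, nothing is read from these counts. The 6 regulated genes had a median log2 fold change of 1.41 (0.95 to 2.16) and the other 4 a median of 0.18 (0.04 to 0.62), with −0.004 over all tested genes.

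Within the groups, samples also differed in ways that several genes shared. In si-NC replicate 1 all 6 regulated genes were below their group mean on the log2 CPM scale (median deviation −0.16), and in si-NC replicate 3 all 6 were above it (0.11). In si-METTL16 replicate 2 all 6 were above the mean, with a median deviation of 0.08, while replicate 3 had 1 of 6 above it. The remaining samples were mixed, with 4 of 6 above the mean in si-NC replicate 2 and 3 of 6 in si-METTL16 replicate 1. The other 4 genes were likewise all above their mean in si-METTL16 replicate 2 and all below it in replicate 3, with median deviations of 0.04 and −0.06, while in si-NC 2 or 3 of the 4 were above it in each sample. For the 6 regulated genes these deviations are small beside the differences of 0.95 and more between the groups. Among the other 4, CDC16 reached −0.14 in si-NC replicate 2 and FZR1 −0.11 in si-METTL16 replicate 3. Both are larger in size than the group differences of these genes, 0.04 and 0.07.

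Ordered by mean FPKM, the controls ran from UBE2S (37.9) over CDC20 (20.2), PTTG1 (16.1), UBE2C (16.1), CDC23 (13.8), CDC27 (11.4), CDC16 (11.2), FBXO5 (6.40) and FZR1 (4.09) to ESPL1 (1.56). Samples of CDC20 and PTTG1, of PTTG1 and UBE2C, and of CDC27 and CDC16 overlapped in range between neighbours. In si-METTL16 the order was UBE2S (72.0), UBE2C (70.7), PTTG1 (47.3), CDC20 (41.0), CDC23 (20.9), FBXO5 (16.3), CDC27 (13.6), CDC16 (11.3), FZR1 (4.24) and ESPL1 (4.19). Here UBE2S and UBE2C, PTTG1 and CDC20, and FZR1 and ESPL1 overlapped. Within a sample the order could still be firm. PTTG1 was at 0.734, 0.911 and 0.746 times the FPKM of CDC20 in si-NC and at 1.23, 1.12 and 1.12 times in si-METTL16, below it in every control and above it in every silenced sample. UBE2C thus stood near the core subunits in the controls and well above them after silencing, at 1.24, 1.53 and 1.47 times the FPKM of CDC27 in si-NC and 5.28, 5.17 and 5.12 times in si-METTL16.

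**Figure D3:**
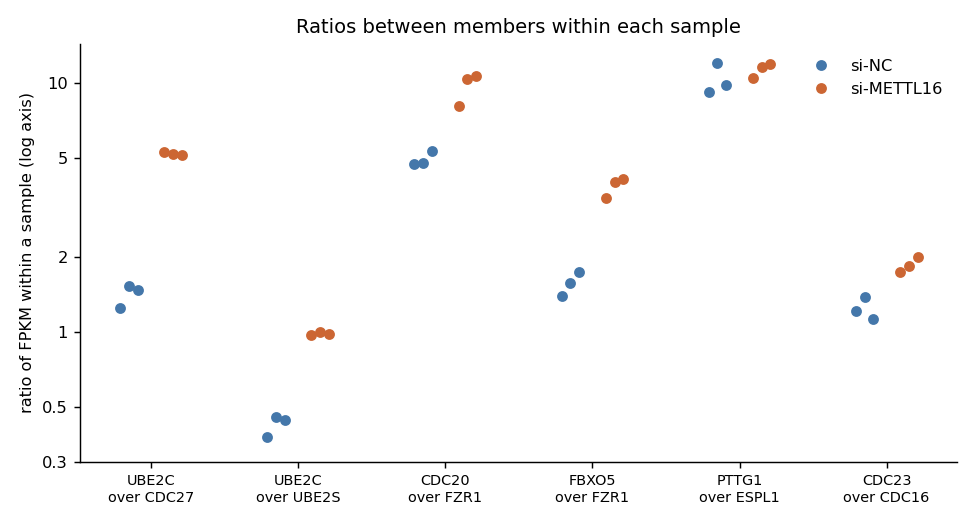
Ratios of FPKM between pairs of the 10 genes within each sample, on a log axis, for si-NC (blue) and si-METTL16 (orange). The groups are apart for UBE2C over CDC27 (mean 1.41 against 5.19) and overlap for PTTG1 over ESPL1 (10.3 against 11.3).

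The 11 core subunits outside the 10 genes were read from the fit over all genes. This list and those below were written from general knowledge, but with earlier results of these data known. Their counts past the threshold and their adjusted p-values are therefore a description too. Of the 11 core subunits, 1 rose, 2 fell and 8 did not pass the threshold, beside 18.4% of all tested genes that passed as higher and 17.5% that passed as lower. Their median log2 fold change was 0.11. ANAPC1, the largest scaffold subunit, rose from 77.8, 81.5 and 74.6 CPM in si-NC to 139.6, 148 and 131 CPM in si-METTL16, with a log2 fold change of 0.84 (SE 0.07, adjusted p = 0.000264). Its copy ANAPC1P1 held 543 counts beside 10961, and adding them left the log2 fold change at 0.84.

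Neither subunit of the catalytic module passed as higher. ANAPC11, the RING subunit that recruits the E2, fell from 27.9, 27.5 and 29.0 CPM to 23.4, 19.0 and 19.3 CPM (log2 fold change −0.45, SE 0.11, adjusted p = 0.0155). ANAPC2, its cullin partner, was at 35.3, 31.8 and 34.5 CPM in si-NC and at 36.9, 35.1 and 35.4 CPM in si-METTL16 (0.08, SE 0.08, adjusted p = 0.470). ANAPC16, a small structural subunit, fell from 126 to 139.95 CPM in si-NC to 114 to 117 CPM in si-METTL16 (−0.19, SE 0.06, adjusted p = 0.0439). Without si-NC replicate 3, si-METTL16 replicate 2 or si-METTL16 replicate 3, ANAPC1 alone passed, with adjusted p of up to 0.0517 for ANAPC11. ANAPC16 also missed the threshold without si-NC replicate 1 or si-METTL16 replicate 1, with adjusted p of up to 0.116 over all alternatives.

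Among subunits that did not pass, ANAPC7, a further tetratricopeptide repeat subunit, had a log2 fold change of 0.33 (SE 0.11, adjusted p = 0.0514) and CDC26, which steadies CDC16, had 0.26 (SE 0.10, adjusted p = 0.0687). The substrate-receptor subunit ANAPC10 was at 0.16 (SE 0.11, adjusted p = 0.314), and the platform subunits ANAPC4 and ANAPC5 were at 0.10 (SE 0.08, adjusted p = 0.394) and −0.07 (SE 0.08, adjusted p = 0.492). ANAPC15 was at 0.26 (SE 0.20, adjusted p = 0.365). ANAPC13 varied too widely for a direction, from 42.8 to 77.9 CPM within si-NC and from 49.9 to 80.7 CPM within si-METTL16. Exons of ANAPC10, ANAPC11, ANAPC13, ANAPC15 and ANAPC16 overlap genes on the opposite strand, which leaves their counts uncertain where strand was not used.

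**Figure D4:**
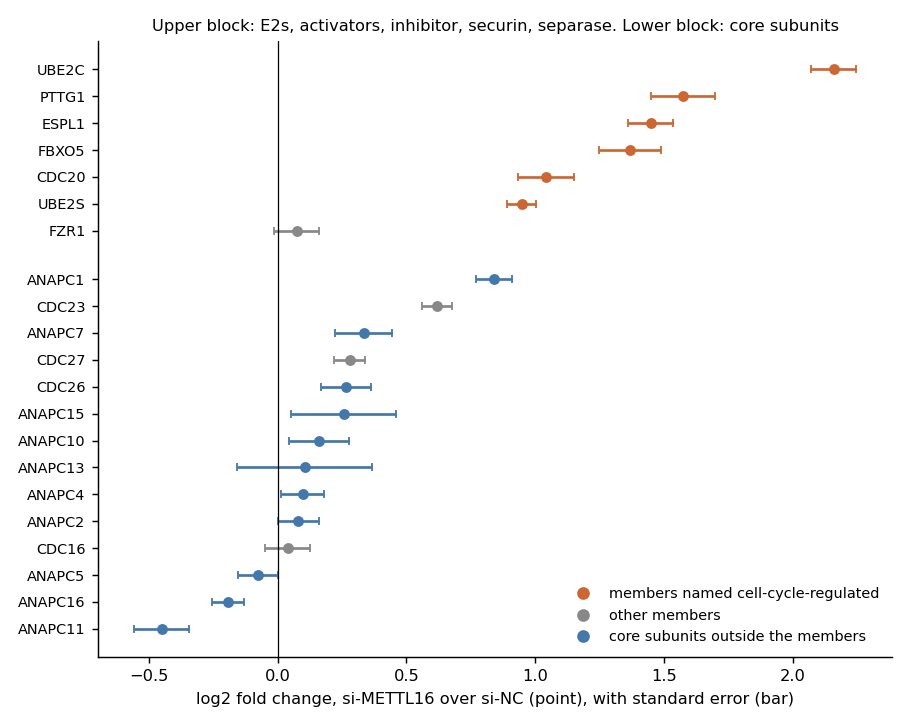
Log2 fold change of si-METTL16 over si-NC with its standard error for the 7 E2s, activators, inhibitor, securin and separase (upper block) and the 14 core subunits (lower block). The regulated genes lie between 0.95 and 2.16, and the core subunits between −0.45 (ANAPC11) and 0.84 (ANAPC1).

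Other E2 enzymes, which serve other ubiquitin ligases or carry ubiquitin-like proteins, were listed as 35 genes. UBE2D1 in this list can also work with the APC/C, and is counted among its modifiers too (log2 fold change 0.62, SE 0.07, adjusted p = 0.000848). Of 33 tested, 7 rose, 5 fell and 21 did not pass, with a median log2 fold change of 0.04. That is a share near the 35.9% of all tested genes that passed, so the count is not a result about these enzymes. Without si-NC replicate 1 or without si-METTL16 replicate 1, 3 rather than 5 fell. UBE2T, the E2 of the Fanconi anaemia pathway, rose by 0.86 (SE 0.09, adjusted p = 0.000527) from 31.7 to 36.9 CPM in si-NC to 59.4 to 64.3 CPM in si-METTL16. UBE2O rose by 0.71 (SE 0.08, adjusted p = 0.000933). UBE2H, the E2 of the CTLH ligase, fell by 1.04 (SE 0.06, adjusted p = 0.000102) from 149 to 154 CPM to 70.0 to 75.4 CPM, and AKTIP, an E2 variant without catalytic activity, fell by 0.93 (SE 0.15, adjusted p = 0.00323).

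The mitotic checkpoint holds CDC20 back until chromosomes are attached. Its genes and related ones, TRIP13, MAD2L1BP and MAD2L2 among them, were listed as 9 genes, and not all of their products hold CDC20 back. Of these, 7 rose, 0 fell and 2 did not pass, where 18.4% of all tested genes passed as higher and 17.5% as lower, and the median log2 fold change was 0.63. The kinase BUB1 rose by 1.63 (SE 0.10, adjusted p = 0.000114), from 66.7, 85.8 and 76.5 CPM to 233, 248 and 227 CPM. MAD2L1, which binds CDC20 directly, rose by 1.35 (SE 0.12, adjusted p = 0.000348), from 30.7, 39.1 and 42.8 CPM to 94.3, 98.4 and 94.7 CPM. The smallest rises past the threshold were those of BUB3 (0.60, SE 0.06, adjusted p = 0.000526) and MAD1L1 (0.36, SE 0.10, adjusted p = 0.0324). MAD1L1 missed the threshold without si-NC replicate 2 or 3 or si-METTL16 replicate 1 or 2, with adjusted p of up to 0.0917.

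Modifiers of APC/C activity comprised the kinases, phosphatases, ligases and deubiquitinases that act on the complex or on its inhibitor. Of 21 listed, 20 were tested, 10 rose, 1 fell and 9 did not pass, with a median of 0.37, beside 18.4% of all tested genes that passed as higher and 17.5% as lower. FBXO43, the meiotic relative of FBXO5, had low counts of 9, 20 and 7 in si-NC and 44, 51 and 80 in si-METTL16, a log2 fold change of 2.30 (SE 0.42). It passed the filter on low counts only through si-METTL16, so its call is not read as a result. With at least 10 counts required in every sample it left the list, and 9 of the 19 remaining genes rose and 1 fell. CCNF, cyclin F, a ligase subunit that opposes FZR1, rose by 1.26 (SE 0.11, adjusted p = 0.000297), from 20.1 to 24.6 CPM to 51.6 to 59.9 CPM. RBX1, the RING subunit of cullin ligases, rose by 0.39 (SE 0.10, adjusted p = 0.0211). BTRC, the F-box protein that targets FBXO5 for destruction, fell by 0.24 (SE 0.07, adjusted p = 0.0362).
BTRC missed the threshold without si-NC replicate 1 or 2 or any single si-METTL16 replicate (adjusted p of up to 0.0937). RBX1 missed it without si-NC replicate 1 or 2 or si-METTL16 replicate 2 or 3 (up to 0.0716).

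APC/C substrates, the proteins that the ligase marks for destruction, rose nearly throughout. Of 41 listed and tested, 39 rose, 1 fell and 1 did not pass, with a median log2 fold change of 1.18, against 18.4% higher and 17.5% lower among all tested genes. The lists share genes: BUB1 is also counted among the checkpoint genes, PLK1 among the modifiers, and CDCA5 and SGO1 among the cohesin regulators. RRM2, a ribonucleotide reductase subunit, rose by 2.71 (SE 0.22, adjusted p = 0.000243), from 29.1, 50.3 and 35.3 CPM to 211, 241 and 298 CPM. CDCA5 (sororin), which protects cohesin until mitosis, rose by 1.99 (SE 0.11, adjusted p = 9.2e-05). The smallest rise was that of the mitotic kinase PLK1 (0.61, SE 0.13, adjusted p = 0.01004), from 39.0 to 54.5 CPM to 65.6 to 75.7 CPM. SKIL, a repressor of TGF-beta signalling, fell by 0.71 (SE 0.07, adjusted p = 0.000498), from 227 to 249 CPM to 136 to 156 CPM. These are transcript levels, and the degradation of the proteins was not measured.

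Cohesin, the target of separase, and the regulators of cohesin showed a smaller and mixed difference. Of 14 genes, 8 rose, 1 fell and 5 did not pass, with a median of 0.24, again beside 18.4% and 17.5% over all tested genes. The highest were CDCA5, also among the substrates, and the acetyltransferase ESCO2 (1.27, SE 0.12, adjusted p = 0.000383), which closes cohesin on replicated DNA and went from 6.98 to 8.19 CPM to 16.9 to 19.6 CPM. On log2(FPKM + 1), which understates low genes, ESCO2 was at 0.65. The cohesin loader NIPBL rose by 0.17 (SE 0.05, adjusted p = 0.0361), and missed the threshold when any single sample was left out (up to 0.115). The cohesin subunit STAG1 fell by 0.34 (SE 0.09, adjusted p = 0.0228), and missed it without si-NC replicate 1 or si-METTL16 replicate 2 (up to 0.0681).

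**Figure D5:**
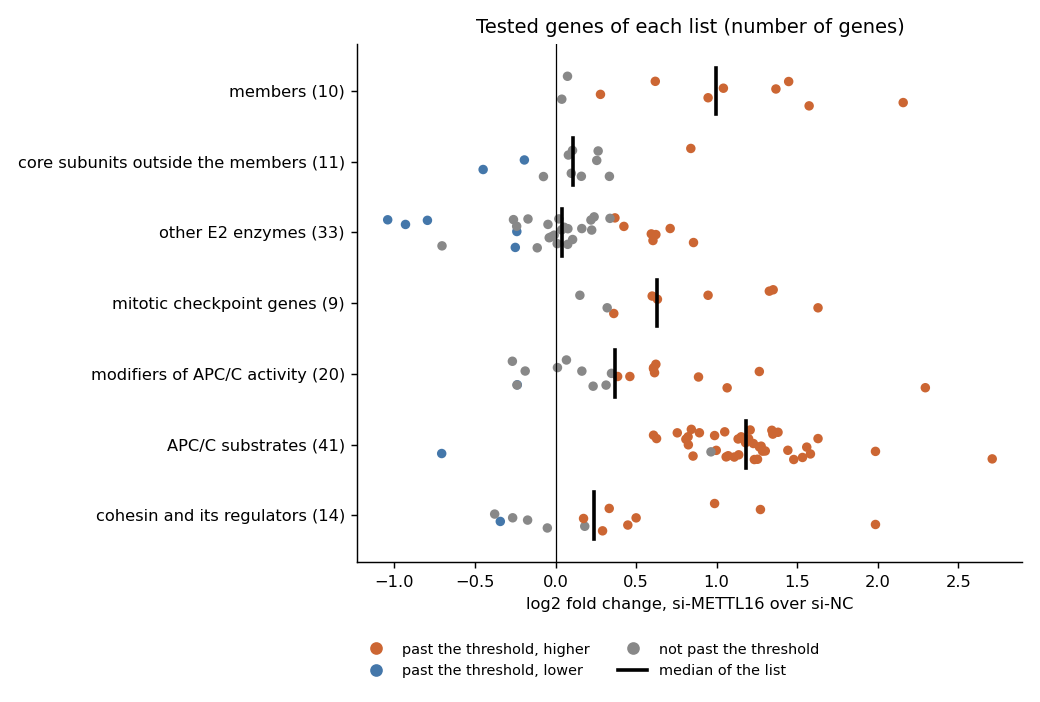
Log2 fold change of every tested gene of the 10 members and of each list, coloured by its call at an adjusted p under 0.05, with the median of the list as a black line. The medians run from 0.04 for other E2 enzymes to 1.18 for APC/C substrates.

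The genes whose log2 CPM over the 6 samples was most like that of UBE2C were ETS2, a transcription factor (Pearson's r 0.9998), CIT, the citron kinase of cytokinesis (0.9998), and CDCA8, the borealin subunit of the chromosomal passenger complex (0.9995). For CDC27 they were RBFA, a mitochondrial ribosome-binding factor (0.9977), NANP, a phosphatase of sialic acid synthesis (0.9970), and AC023055.1 (0.9966). In all, 291 genes had an r over 0.99 with UBE2C and 23 with CDC27. The 6 points form 2 groups of 3 that share their transfection, so these values describe the step between the groups more than variation within them.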

How the data were processed

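RNA-seq data of 6 PANC-1 samples were used, grouped by the sample titles. Per the submitters' processing notes, HISAT2 2.0.4, StringTie 1.3.0 and GRCh38 were used. Annotation release and use of strand are not given in the sources used here. The authors deposited raw counts per gene and FPKM, the counts scaled by gene length and library total. All per-sample columns matched a sample. Members and gene lists, which were written from general knowledge, were chosen with earlier results of these data known.

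Counts were filtered with filterByExpr (minimum count 10, minimum total 15), scaled by TMM and compared with edgeR 4.0.16 (glmQLFit, glmQLFTest) in R 4.3.3 over all 15089 genes. The p-values were adjusted by Benjamini-Hochberg, and genes under 0.05 passed. Each SE was derived from this test, as the absolute log2 fold change divided by the square root of its F statistic. The study's methods name limma, which was run as an alternative (limma 3.58.1), as was DESeq2 1.42.0. CPM were computed after TMM scaling, and log2 CPM with a prior count of 2. Within-sample ratios used the deposited FPKM. Genes named were all members, METTL16, every further core subunit, and from each other list the 2 top and 2 bottom log2 fold changes of genes past the threshold with non-overlapping groups; likeness was Pearson's r over 6 samples. Motifs were searched on both strands in RefSeq start windows. Gene coordinates are those of the table, and start and end equal those of GENCODE v44 for 4 of 10 members. The edgeR fit was tested on counts simulated for this comparison (14860 genes after the filter): of 99 genes changed by a log2 fold change of 1, 52 passed, of 99 changed by 0.5, 4 passed, and of 14662 unchanged genes, 6 passed. Far fewer genes were changed in the simulation than passed in the data, which makes the adjusted threshold stricter there. The shares that passed in it therefore do not carry over to the data. Precision is limited by 3 replicates per group (common biological coefficient of variation 16.5%) and, for low genes, by depth. Replicates differed by more than sampling noise (chi-square per degree of freedom 15.6 to 18.9 within groups). Alternatives were each sample left out, the replicate number as a block, other filters, scalings, tests, units and thresholds, and, chosen after seeing the data, counts of copies added to UBE2S and ANAPC1.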

Additional observations from a re-analysis of the deposited data

How the results depend on the processing

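The number of members past the threshold (7 or 8), the METTL16 log2 fold change (−1.52 to −1.15) and the total calls among other E2 enzymes, checkpoint genes and substrates stayed within 1.5 times under all alternatives run, although E2 enzymes that fell went from 5 to 3 under both stricter thresholds. An adjusted p under 0.01 gave 3035 genes and a log2 fold change of at least 0.5 gave 3437, in place of 5418; leaving out a sample gave 4159 to 4526. Both stricter thresholds left 1 core subunit outside the members, and leaving out a sample left 1 to 3. The first left 7 modifiers and the other 4 cohesin genes, in place of 11 and 9, since fewer genes can pass a stricter threshold. The log2 fold change of ANAPC13 turned from 0.11 to −0.07 without si-NC replicate 2 and to −0.14 without si-METTL16 replicate 3, in a range up to 0.39 with a sample left out, and the cause was not tested. On log2(FPKM + 1), which understates changes of low genes, the values were 0.65 for ESCO2, 1.02 for ESPL1, 0.56 for CDC23 and 1.12 for the median of the 6 regulated genes. Scaling by DESeq2 size factors, upper quartiles or library totals moved the median of all genes by under 0.1, but the larger direction turned, with 2621 higher and 2805 lower by library totals and 2576 and 2867 by upper quartiles, in place of 2780 and 2638. It also turned on log2(FPKM + 1) (2287 and 2369) and log2(FPKM + 0.1) (2248 and 2342).

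Same-numbered samples did not deviate together by more than r = 0.0371, although every sample correlated best with its own number. These small values do not settle whether the numbers pair the samples. With the replicate number as a block, 5013 genes passed, as did 8 members, 3 further core subunits (ANAPC7 in place of ANAPC16), 12 other E2 enzymes, 6 checkpoint genes, 11 modifiers, 41 substrates and 8 cohesin genes. Depth limits FBXO43 among the genes named, and USP44, UBE2QL1 and UBE2U were too low to be tested.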
